A study of Mus musculus with 5 samples.

Results

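The 9 genes described here (Crym, Thra, Thrb, Dio2, Dio3, Slco1c1, Klf9, Hr and Ttr) are the listed carriers, enzymes, receptors and targets of thyroid hormone handling, out of 32285 features in the tables. They were picked by name, and Crym was included because its level in hippocampal pyramidal neurons had stood out between genotypes in earlier results of these data. Its values in excitatory neurons are therefore given as a description with no test. All 9 were measured in hippocampi of newborn mice at postnatal day 1, dissociated with papain and sequenced as single cells from the 3′ end with unique molecular identifiers (UMIs). The groups were Trem2-/- pups (KO, 2 libraries, replicates 2 and 3) and Trem2+/+ pups (WT, 3 libraries, replicates 1, 2 and 3), each library a pool of 2 pups. By the sample descriptions, replicate 2 of each genotype pooled 2 males and every other library 1 male and 1 female, although another label gives both sexes for every pool. The labels name no other allele, treatment or strain.

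Thyroid hormone reaches the brain mostly as the prohormone thyroxine, which crosses the endothelium and glial membranes through transporters and is turned into the active triiodothyronine by the deiodinase encoded by Dio2, while the deiodinase encoded by Dio3 inactivates both forms. Triiodothyronine enters neurons, where it can be held in the cytosol by the binding protein encoded by Crym, and acts in the nucleus through the receptors encoded by Thra and Thrb. In the developing rodent hippocampus this supply is known to shape neuronal maturation and myelination.

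The 5 libraries held 40345 barcodes, between 6512 and 10582 per library, with 60024793 to 91205882 UMIs each, and any pair of libraries shared between 12 and 26 barcodes. After the limits on genes, UMIs and mitochondrial share, 30699 cells were kept, and 24513 of them (79.8%) were placed in 1 of 19 marker gates, none of which uses a gene of the set. A gate is a range of marker counts and not a proven cell type: 699 of the 3409 CA3-gated cells and 150 of the 3677 astrocyte-gated cells sat exactly at the lineage threshold. So did 214 of the 299 intermediate progenitors and 293 of the 725 oligodendrocyte precursors. The field gates were weaker, with 111 of the 128 CA1-gated, 1671 of the CA3-gated and 901 of the 1210 dentate-gated cells exactly at the field threshold. Other lineages' markers had a median of at most 2 of 8 detected in the CA3, inhibitory, radial glia, astrocyte, endothelial, mural and microglia gates, but ependymal-gated cells carried a median of 5 of the 8 radial glia and astrocyte markers. Levels are CPM, the gene's UMIs per 1000000 UMIs summed over a gate in 1 library, with the SD over libraries. Because reads come from the transcript end, levels are compared between gates for 1 gene and not between genes. In microglia-gated cells Trem2 stood at 51.0 and 82.6 CPM in KO libraries, against 1429, 1485 and 1044 CPM in WT libraries, in the direction the labels give. The microglia of KO replicate 3 and WT replicate 3 were shallow, with medians of 2528 and 2263 UMIs per cell, against 7847 to 9983 in the other libraries.

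**Figure D1:**
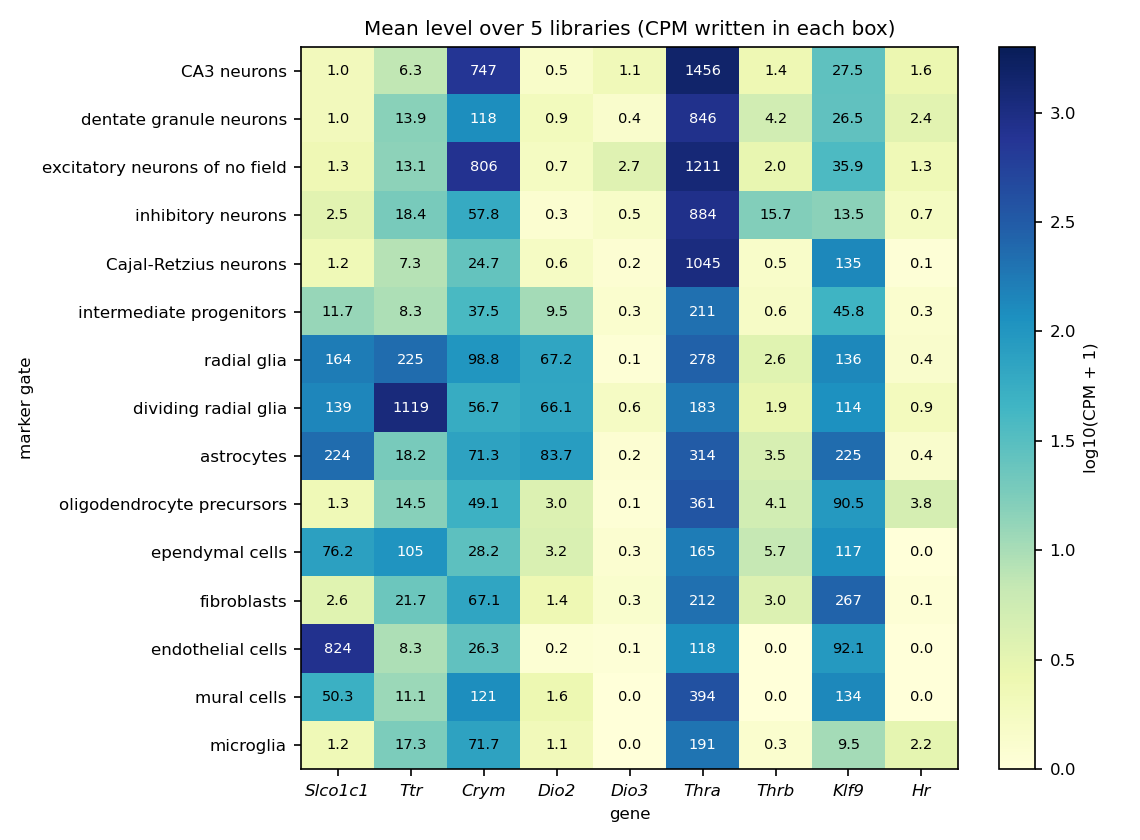
Mean level of each gene over the 5 libraries (colour, log10 of CPM + 1, with the CPM written in each box) in the 15 gates that held at least 20 cells in every library. Slco1c1 peaks in endothelial cells at 824 CPM, Dio2 in astrocytes at 83.7 CPM, Thra in CA3 neurons at 1456 CPM and Thrb in inhibitory neurons at 15.7 CPM.

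Transport, activation, receptors and cytosolic binding lay in different cells. Slco1c1, the organic anion transporter that carries thyroxine, was highest in endothelial cells among the 15 gates with at least 20 cells in every library. Dio2 was measured almost only in astrocytes and radial glia. Thra was higher in every neuronal gate than in every other tested gate, Thrb was highest in inhibitory neurons, and Crym was highest in excitatory neurons outside the dentate gate. The promoters of Slco1c1 and Dio2 are printed because these are the members whose levels separated barrier and glial gates from neurons. RefSeq (build GRCm38.p6) gives a promoter window of 250 bases before to 50 bases after the start for 5 of the 9 genes, Thrb, Dio2, Dio3, Slco1c1 and Klf9. The Dio2 window lies at chr12:90738989-90739288 on the minus strand and the Slco1c1 window at chr6:141524104-141524403 on the plus strand. Capitals mark matches, on either strand, to 4 searched motifs that are spelled out after the sequences.
Dio2 promoter: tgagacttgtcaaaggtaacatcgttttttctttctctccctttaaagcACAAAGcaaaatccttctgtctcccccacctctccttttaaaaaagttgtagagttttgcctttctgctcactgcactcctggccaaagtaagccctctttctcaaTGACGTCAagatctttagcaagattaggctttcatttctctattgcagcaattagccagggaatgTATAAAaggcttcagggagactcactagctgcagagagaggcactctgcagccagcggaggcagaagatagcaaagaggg
Slco1c1 promoter: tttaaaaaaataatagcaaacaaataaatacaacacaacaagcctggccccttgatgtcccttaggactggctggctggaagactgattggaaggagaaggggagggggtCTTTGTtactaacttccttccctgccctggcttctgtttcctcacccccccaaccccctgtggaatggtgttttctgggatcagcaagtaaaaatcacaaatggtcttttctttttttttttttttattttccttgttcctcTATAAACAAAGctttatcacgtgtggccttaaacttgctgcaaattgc

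The Dio2 window held the cAMP response element TGACGTCA at position -95, counted from the start base as 0. This motif was found in 1.79% of the 32851 promoters in the table. The window also held a TATA box, TATAAA (13.6% of promoters), at position -30. It held 1 copy of the SOX motif ACAAAG, present in 18.7% of promoters. The Slco1c1 window held 2 copies of the SOX motif, 1 of them read on the other strand, and the letters TATAAA at position 2, after the start, where they share 1 base with the second copy. The nuclear receptor half-site AGGTCA (16.3% of promoters) was in neither window and was present in 1 of the 2 Thrb windows. The 2 printed windows were 44.7% and 42.0% GC, below the median of 52.7% over all promoters. A motif match is a description of letters in this window and says nothing of binding.

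Slco1c1, on chromosome 6 (141524368 to 141570177, plus strand, GENCODE M21), was measured at 897 and 770 CPM in endothelial cells of KO libraries, against 827, 661 and 965 CPM in WT libraries. The groups overlapped, and every endothelial value lay above every astrocyte value. The choroid plexus gate was too small to rank. It held 0 CPM in KO replicate 2 (1 cell), against 340, 524 and 676 CPM in WT libraries (5, 4 and 3 cells). Astrocytes held 256 and 196 CPM in KO libraries, against 208, 244 and 214 CPM in WT libraries. Radial glia averaged 164 ± 23.1 CPM and dividing radial glia 139 ± 13.8 CPM (SD, n = 5 each), and the library values of neighbouring glial gates overlapped. Neurons stood near the bottom, with CA3 neurons at 1.01 ± 0.310 CPM. At 2000 UMIs per cell, 73.5% of endothelial cells would carry at least 1 Slco1c1 UMI, against 32.4% of astrocytes and 0.22% of CA3 neurons. Across the 15 gates the most similar patterns were those of Atl2 (Pearson r = 0.94), Nedd9 (r = 0.92) and Hey1 (r = 0.89), over 11682 genes compared. These correlations are over gates of the same 5 libraries and are descriptions.

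Slc7a5 and Slc3a2, the light and heavy chains of an amino acid transporter that also carries thyroid hormone, were both highest in endothelial cells, at 927 ± 198 and 1125 ± 111 CPM (SD, n = 5).

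Among the 7 gates with a test, Slco1c1 had its lowest log2 fold change in ependymal cells. It stood at 42.1 and 49.4 CPM in KO libraries, against 104, 125 and 60.2 CPM in WT libraries, with no overlap, while 9.51% of all genes in this gate lay below WT in the same way. The log2 fold change was -1.05 (SE 0.31), and it did not pass edgeR's quasi-likelihood test over all genes (adjusted p = 1.00). Without the filter on low counts it did (-1.07, edgeR adjusted p = 0.0238), and leaving out each library in turn gave -1.32 to -0.81. This gate held 27 to 120 cells per library. In mural cells, where it was too low for the test, Slco1c1 stood at 0 and 3.38 CPM in KO libraries, against 19.5, 222 and 6.77 CPM in WT libraries. The groups did not overlap there either, as for 9.22% of all genes, and WT replicate 2 alone held 36 of the 45 UMIs.

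Ttr encodes transthyretin, the thyroxine carrier that the choroid plexus secretes into the cerebrospinal fluid. Only 13 cells passed the choroid plexus gate, 1 and 0 in KO libraries, against 5, 4 and 3 in WT libraries, too few for a test. They held 75.8% of the Ttr UMIs of all gated cells. Over gated and ungated cells together, Ttr was concentrated in 51 cells with at least 100 Ttr UMIs each, which held 98.3% of its 246758 UMIs. Of these cells, 45 carried at least 3 choroid plexus markers, 39 carried at least 3 ependymal markers and 27 were left without a gate. KO libraries held 9 and 7 such cells, against 12, 10 and 13 in WT libraries. As a share of the kept cells these were 0.161% and 0.127% in KO libraries, against 0.189%, 0.212% and 0.153% in WT libraries, and the shares overlapped.

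In radial glia Ttr rested on single cells. It stood at 221 and 719 CPM in KO libraries, against 37.4, 17.2 and 129 CPM in WT libraries (log2 fold change 2.93, SE 0.52, edgeR adjusted p = 0.509). The groups did not overlap, as for 9.02% of all genes in this gate. It passed without KO replicate 2 (3.55, edgeR adjusted p = 0.000185) and without WT replicate 3 (4.05, edgeR adjusted p = 0.00507). In each KO library 1 cell gave most of these counts, with 390 of 405 UMIs in KO replicate 2 and 819 of 832 UMIs in KO replicate 3. Without the cells of at least 100 Ttr UMIs, a limit set after seeing the data, the direction turned, to 8.26 and 11.4 CPM in KO libraries, against 37.4, 17.2 and 54.4 CPM in WT libraries. Dividing radial glia behaved the same way: their mean was 2001 CPM in KO libraries against 531 CPM in WT libraries with these cells, and 5.47 CPM against 15.5 CPM without them. With these cells the dividing radial glia had KO above WT without overlap, as for 10.3% of all genes in this gate.

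**Figure D2:**
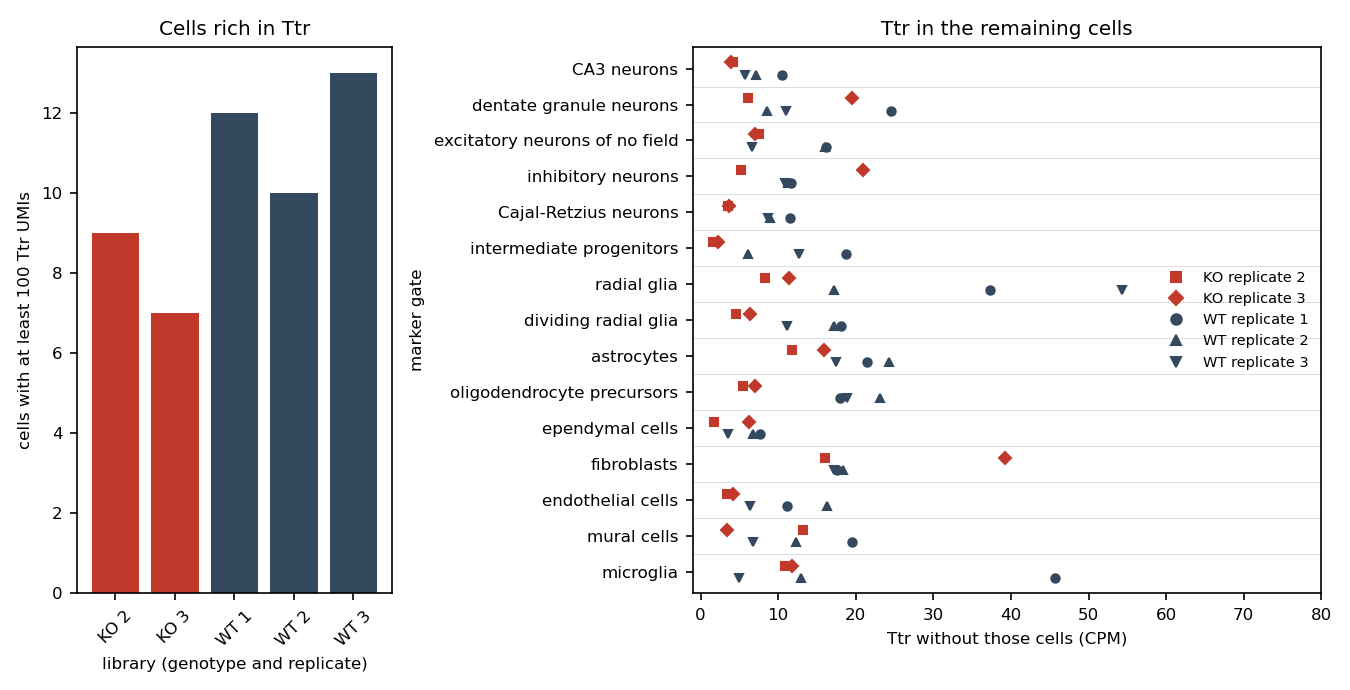
Left, the number of kept cells with at least 100 Ttr UMIs in each library (bars). Right, the Ttr level (CPM) per library and gate once those cells are left out, with KO points above WT points in each row: KO values lie below all WT values in 8 of the 15 gates, for example at 3.48 and 3.71 CPM in KO against 8.70 to 11.6 CPM in WT in Cajal-Retzius neurons.

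Away from these cells Ttr was low in every tested gate. In oligodendrocyte precursors it stood at 5.50 and 6.98 CPM in KO libraries, against 17.9, 23.1 and 18.9 CPM in WT libraries. KO values lay below all WT values without overlap in 8 of 15 gates once the Ttr-rich cells were left out, namely CA3 neurons, Cajal-Retzius neurons, intermediate progenitors, radial glia, dividing radial glia, astrocytes, oligodendrocyte precursors and endothelial cells. Of all genes, 10.2%, 10.6%, 8.95%, 9.24%, 8.85%, 6.61%, 10.3% and 12.9% did so in these gates, in the same order. In 0 gates did KO lie above WT. The gates of a library share its free RNA, and Ttr-rich cells were fewer in both KO libraries although their shares of kept cells overlapped, so the 8 gates are not 8 separate observations, and the part of free RNA in these low levels was not tested. Of the 10 gates where Ttr could be tested, none passed (lowest edgeR adjusted p = 0.509).

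Dio2, on chromosome 12 (90724552 to 90738438, minus strand), encodes the enzyme that makes triiodothyronine. Astrocytes held 78.8 and 91.6 CPM in KO libraries, against 94.7, 72.6 and 80.8 CPM in WT libraries. Radial glia held 69.4 and 70.9 CPM in KO libraries, against 82.2, 61.1 and 52.4 CPM in WT libraries. Values of both genotypes overlapped in each gate, and astrocytes were higher than radial glia in all 5 libraries although the ranges of the 2 gates overlapped. The astrocyte log2 fold change was 0.02 (SE 0.14, edgeR adjusted p = 1.00).

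Dividing radial glia, at 66.1 ± 10.0 CPM, stood apart from intermediate progenitors at 9.48 ± 4.02 CPM (SD, n = 5 each), and neurons lay near 1 CPM or lower. Astrocytes held 59.8% of the 4681 gated Dio2 UMIs, radial glia 13.1% and dividing radial glia 23.0%. The genes with the most similar pattern were Acsbg1 (r = 0.97), Gm6145 (r = 0.96) and Has2 (r = 0.95). Endothelial cells, where Slco1c1 peaked, held 2 Dio2 UMIs in 371 cells.

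Dio3, which encodes the inactivating enzyme, was close to the detection floor, with 368 UMIs over all gated cells. Excitatory neurons of no field held the largest part, 59.0% of these UMIs, at 1.45 and 3.92 CPM in KO libraries, against 3.95, 1.78 and 2.30 CPM in WT libraries. The gate for subicular or deep cortical neurons reached 1.24 and 22.8 CPM in KO libraries, against 9.79, 4.20 and 24.0 CPM in WT libraries. This gate held only 18 to 54 cells per library and spread widely within each genotype. Mural cells and microglia had no Dio3 UMI.

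**Figure D3:**
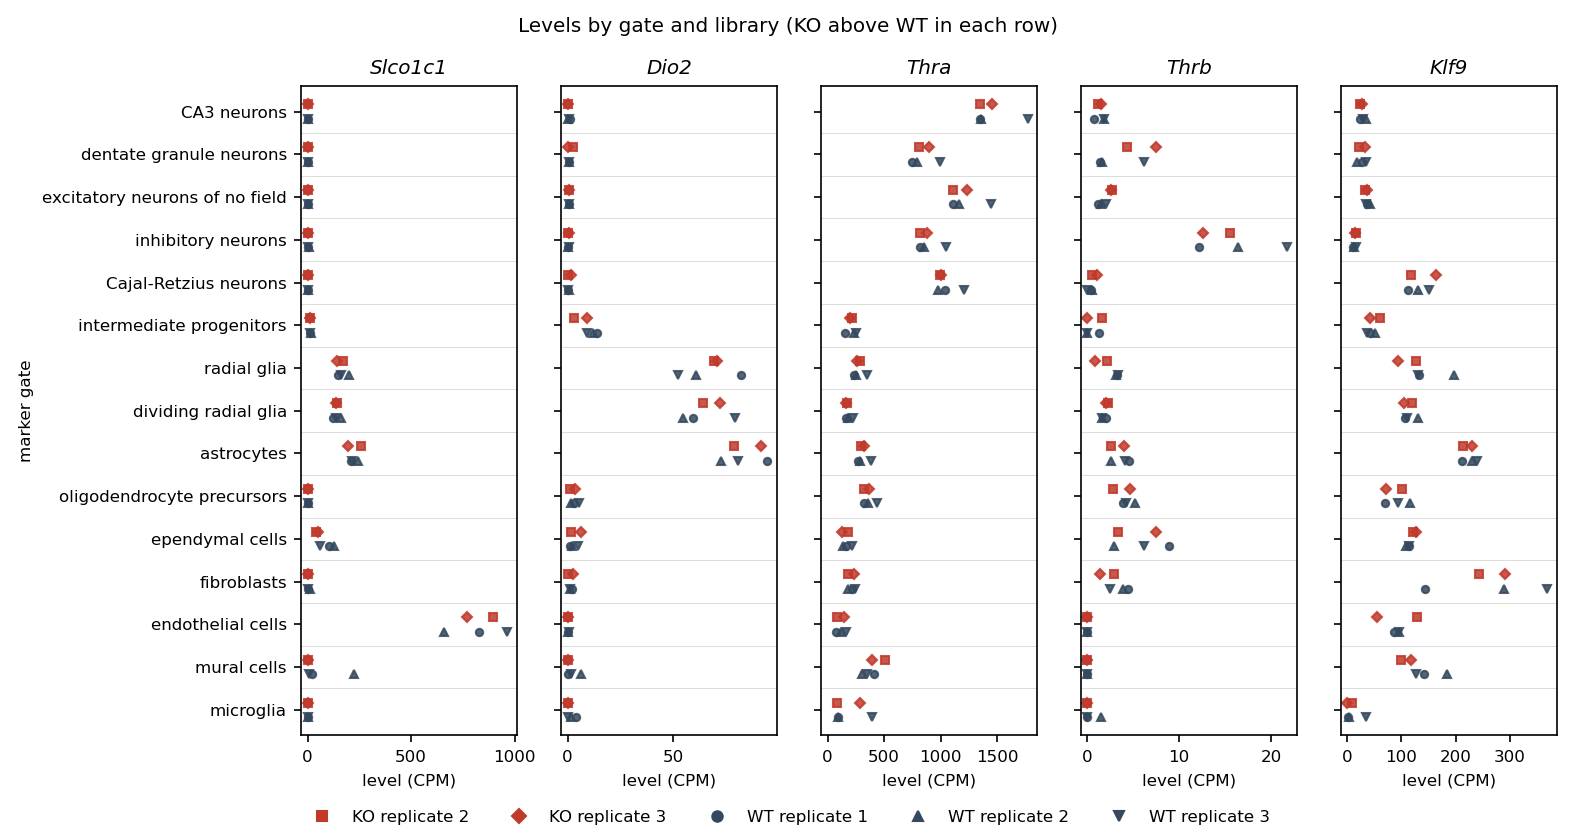
Level (CPM) of Slco1c1, Dio2, Thra, Thrb and Klf9 in each gate, 1 point per library, with KO points above WT points in each row. The spread between gates exceeds the spread between genotypes: Slco1c1 is near 1 CPM in CA3 neurons and at 661 to 965 CPM in endothelial cells, with both genotypes inside that range.

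Thra, on chromosome 11 (98740638 to 98769006, plus strand), encodes the main thyroid hormone receptor of the brain. It overlaps Nr1d1 on the opposite strand by 1075 bases. The sources used here do not say whether the counting used strand, so reads of the 2 genes in that stretch may not be separable, and the receptor and non-receptor forms of Thra cannot be told apart. Nr1d1 itself averaged 1.73 CPM in excitatory neurons. CA3 neurons held 1345 and 1456 CPM of Thra in KO libraries, against 1351, 1358 and 1769 CPM in WT libraries.

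The order of Thra levels ran from CA3 neurons (1456 ± 181 CPM) over excitatory neurons of no field (1211 ± 142 CPM), Cajal-Retzius neurons (1045 ± 93.8 CPM) and inhibitory neurons (884 ± 94.1 CPM) to dentate granule neurons (846 ± 98.2 CPM; SD, n = 5 each). Neighbours in this order overlapped over libraries. The next gate, mural cells at 394 ± 76.9 CPM, lay below all neuronal values, and endothelial cells were lowest at 118 ± 35.6 CPM. WT replicate 3 had the highest Thra in 14 of the 15 gates. In all excitatory neurons the log2 fold change was -0.04 (SE 0.12, edgeR adjusted p = 1.00), and it was 0.0848 without WT replicate 3.

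Thrb, on chromosome 14 (17660261 to 18038090, plus strand), encodes the receptor that appears later in brain development. It was sparse, with 847 UMIs over all gated cells, and 32.2% of them were in inhibitory neurons. This gate held 15.5 and 12.6 CPM in KO libraries, against 12.2, 16.4 and 21.8 CPM in WT libraries, and all its values lay above those of ependymal cells, the next gate at 5.73 ± 2.59 CPM (SD, n = 5). Among inhibitory neurons, cells with the interneuron gene Lhx6 and without Meis2 had 14.2 and 8.81 CPM in KO libraries, against 11.8, 10.3 and 12.1 CPM in WT libraries.

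Cells with neither Lhx6 nor Meis2 had 21.1 and 23.1 CPM of Thrb in KO libraries, against 10.7, 18.4 and 37.4 CPM in WT libraries. The genotypes overlapped in both sets, and also in cells with both genes. Cells with Meis2 and without Lhx6 had 9.004 and 1.61 CPM of Thrb in KO libraries, against 19.9, 24.5 and 17.8 CPM in WT libraries. There all KO values lay below all WT values, as for 9.37% of all genes in these cells, but they rest on 1 to 7 Thrb UMIs per library and were not tested. Endothelial and mural cells had no Thrb UMI in any library. Thrb was too low for a comparison of patterns, since that needed 20 CPM in 1 gate or more. In excitatory neurons of no field Thrb stood at 2.66 and 2.51 CPM in KO libraries, against 1.20, 1.498 and 2.07 CPM in WT libraries. The groups did not overlap, as for 7.42% of all genes, and the log2 fold change of 0.68 (SE 0.30) did not pass (edgeR adjusted p = 1.00). A long antisense gene, Gm48321, overlaps Thrb by 90772 bases and averaged 0.0304 CPM in excitatory neurons.

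Klf9 encodes a zinc finger factor that thyroid hormone induces directly in rodent brain. Fibroblasts held 242 and 291 CPM in KO libraries, against 144, 289 and 369 CPM in WT libraries. Astrocytes held 213 and 231 CPM in KO libraries, against 212, 230 and 240 CPM in WT libraries, and stood apart from radial glia at 136 ± 37.6 CPM (SD, n = 5). Among neurons Cajal-Retzius cells were the exception, at 135 ± 21.8 CPM, against 13.5 ± 2.28 CPM in inhibitory neurons. CA3 neurons, highest in Thra, held 27.5 ± 4.44 CPM of Klf9.

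Among its 14 tested gates Klf9 had its lowest log2 fold change in radial glia, with 127 and 94.2 CPM in KO libraries, against 132, 197 and 130 CPM in WT libraries (log2 fold change -0.45, SE 0.20, edgeR adjusted p = 1.00). The groups did not overlap, as was the case for 9.24% of all genes in this gate. Astrocytes showed a log2 fold change of -0.05 (SE 0.12, edgeR adjusted p = 1.00). In the Pou3f1-positive neurons described with Crym, Klf9 stood at 33.6 and 28.5 CPM in KO libraries, against 32.6, 53.1 and 47.5 CPM in WT libraries, which overlapped (log2 fold change -0.45, SE 0.20, edgeR adjusted p = 0.983). Hr, which encodes the corepressor hairless, another direct target in rodent brain, had 291 UMIs over all gated cells. Its mean was highest in oligodendrocyte precursors, with 2.75 and 3.49 CPM in KO libraries, against 3.39, 5.13 and 4.20 CPM in WT libraries, which rest on 2 to 7 UMIs per library. Dentate granule neurons were higher in KO replicate 2 (3.70 CPM) and WT replicate 1 (3.41 CPM). Microglia were higher in KO replicate 3 (5.90 CPM) and WT replicate 3 (4.95 CPM), on 1 UMI each. Hr had no UMI in ependymal, endothelial or mural cells.

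Crym, on chromosome 7 (120186380 to 120202111, minus strand), encodes mu-crystallin, the cytosolic protein that binds triiodothyronine. It was highest in the CA1 gate, at 2295 and 2039 CPM in KO libraries, against 2140, 4418 and 2829 CPM in WT libraries. The groups overlapped. This gate held only 28 and 25 cells in KO libraries, against 27, 3 and 45 cells in WT libraries, so the value of WT replicate 2 rests on 3 cells. The CA3 gate held 663 and 776 CPM in KO libraries, against 754, 711 and 829 CPM in WT libraries, and dentate granule neurons held 129 and 137 CPM in KO libraries, against 96.2, 89.6 and 138 CPM in WT libraries. In both genotypes every CA1 value lay above every CA3 value, and every CA3 value above every dentate value.

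A larger set of CA1-type cells was taken after seeing how few cells passed the CA1 gate. Excitatory cells with at least 2 UMIs of Pou3f1, a transcription factor of CA1 and deep cortical neurons, and none of Prox1, Grik4, Tspan18 or Coch were called Pou3f1-positive. They held 302 and 216 cells in KO libraries, against 204, 80 and 358 in WT libraries. In them Crym stood at 1623 and 1606 CPM in KO libraries, against 2066, 2618 and 2092 CPM in WT libraries. All KO values lay below all WT values, as did those of 11.5% of all genes in this gate, and the log2 fold change was -0.46 (SE 0.11). Grik4-group neurons, with at least 2 UMIs of Grik4, Tspan18 and Coch together and none of Pou3f1 or Prox1, held 747 and 830 CPM in KO libraries, against 723, 856 and 814 CPM in WT libraries, with a log2 fold change of -0.00 (SE 0.10). Prox1-positive neurons, with at least 2 UMIs of Prox1 and none of the other genes, held 85.6 and 86.1 CPM in KO libraries, against 51.7, 66.0 and 71.7 CPM in WT libraries (log2 fold change 0.45, SE 0.15). There all KO values lay above all WT values, as did those of 8.48% of all genes. The pooled SD over libraries was 0.16 in Pou3f1-positive, 0.12 in Grik4-group and 0.20 in Prox1-positive neurons. The SEs come from edgeR's fit of the counts and are no test of Crym. With the gates loosened to a lead of 1 marker over other lineages and fields, which gave enough cells in every library, the Crym log2 fold change in CA1 neurons was -0.32 (SE 0.10). Thra and Klf9 gave 0 calls in that gate, where 0.0616% of all genes were called.

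**Figure D4:**
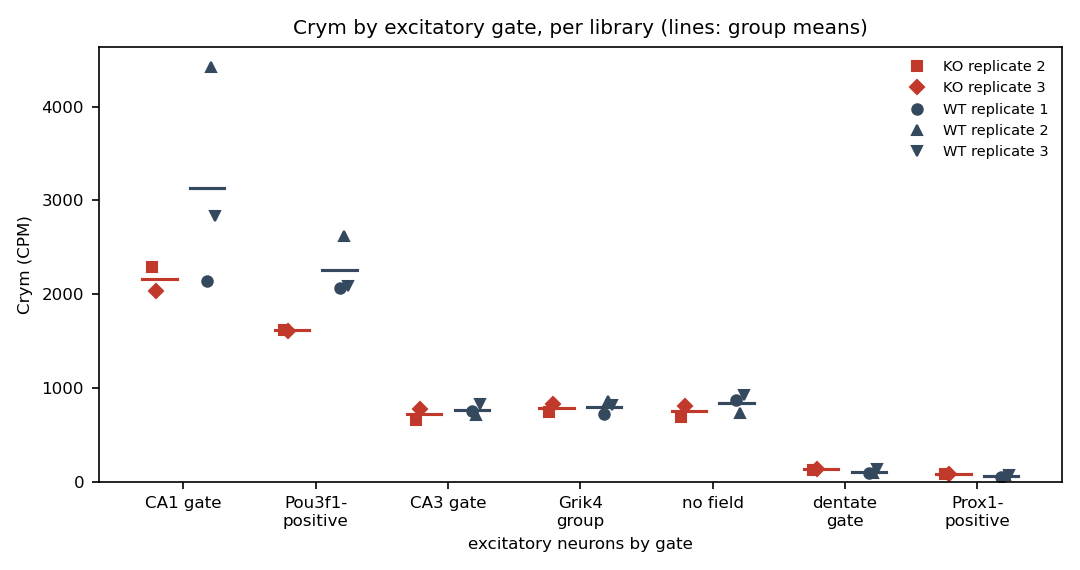
Crym level (CPM) per library in excitatory gates, KO left of WT, with lines at the group means. Pou3f1-positive neurons are at 1623 and 1606 CPM in KO libraries and at 2066 to 2618 CPM in WT libraries, while both genotypes overlap in the CA1, CA3 and Grik4-group gates. In Pou3f1-positive neurons 11.5% of all genes had KO below WT without overlap.

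The genotype differences of Crym in 2 fields were then set against each other within libraries. The genotype difference in Pou3f1-positive minus that in Grik4-group neurons was -0.45 on the log2 scale (SE 0.08, library as a block). Leaving out each library gave -0.53 to -0.36. For the planned CA1 and CA3 gates the difference was -0.28 (SE 0.11). Both SEs come from edgeR's fit of the counts. The pooled SD over libraries was 0.12 for the first difference and 0.51 for the second. Both SEs therefore understate the spread between libraries. For the second, leaving out a KO library gave -0.49 without replicate 2 and -0.10 without replicate 3. Leaving out a WT library gave -0.47 without replicate 1, -0.06 without replicate 2 and -0.35 without replicate 3. A stricter mitochondrial limit of 5% moved the first of these to -0.74, with Crym at 0.29 in Grik4-group neurons. Since the contrast was chosen from these data, no p is given for Crym, and its SEs are a description. In the comparison of CA1 and CA3, the 4 genes called were Nts, Pcdh17, Trps1 and Xist, named after their values were seen. Nts and Trps1 are themselves markers of the field gates. Trps1 had 23 UMIs in CA1-gated cells of KO replicate 2, against 1 in each other library. Nts, a marker of subicular or deep cortical neurons, had a difference of -1.89 (SE 0.24, edgeR adjusted p = 4.1e-11) and stood at 358 and 323 CPM in CA1-gated cells of KO libraries, against 439, 0 and 491 CPM in WT libraries. In CA3-gated cells Nts was at 27.5 and 3.28 CPM in KO libraries, against 4.78, 3.21 and 3.71 CPM in WT libraries. The genotypes overlapped in both gates, although Nts was called. Xist, transcribed from the inactive X of female cells, had a difference of -0.97 (SE 0.18, edgeR adjusted p = 0.000406), with 0 UMIs in CA1-gated cells of replicate 2 of either genotype, the male pools. The part of cell mixture and sex in the Crym difference was not tested.

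The Pou3f1-positive gate mixed cells, and its mixture was measured beside the result, by splits chosen after seeing the data. Between 12.5% and 23.5% of its cells carried at least 5 UMIs of Nts, which encodes neurotensin and marks subicular or deep cortical neurons here: 15.9% and 16.2% in KO libraries, against 23.5%, 12.5% and 14.2% in WT libraries. Pou3f1 itself was at 662 and 628 CPM in KO libraries, against 625, 589 and 604 CPM in WT libraries. All KO values lay above all WT values, and the share of all genes that did so in this gate was not counted. In Pou3f1-positive cells with no Nts UMI, Crym was 1715 and 1616 CPM in KO libraries, against 2321, 2846 and 2233 CPM in WT libraries. In those with Nts it was 1442 and 1585 CPM in KO libraries, against 1695, 1874 and 1748 CPM in WT libraries. KO lay below WT in both, and the log2 ratio of the means was -0.57 without Nts and -0.23 with it. The share of all genes separated this way was not counted in these subsets. They are parts of the Pou3f1-positive gate, where 11.5% of all genes had KO below WT without overlap, and so are not separate observations. In the cells with at least 5 Nts UMIs Crym was 1105 and 1408 CPM in KO libraries, against 1797, 1380 and 1296 CPM in WT libraries, and the groups overlapped (log2 ratio -0.25). Crym was also higher at higher Pou3f1 counts in every library. The genotypes overlapped at 0 and 1 Pou3f1 UMI, and all KO values lay below all WT values in the classes above. Those higher classes contain the Pou3f1-positive cells and so are not separate observations. The difference between classes was not tested, and the share of all genes separated this way was not counted in these classes.

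**Figure D5:**
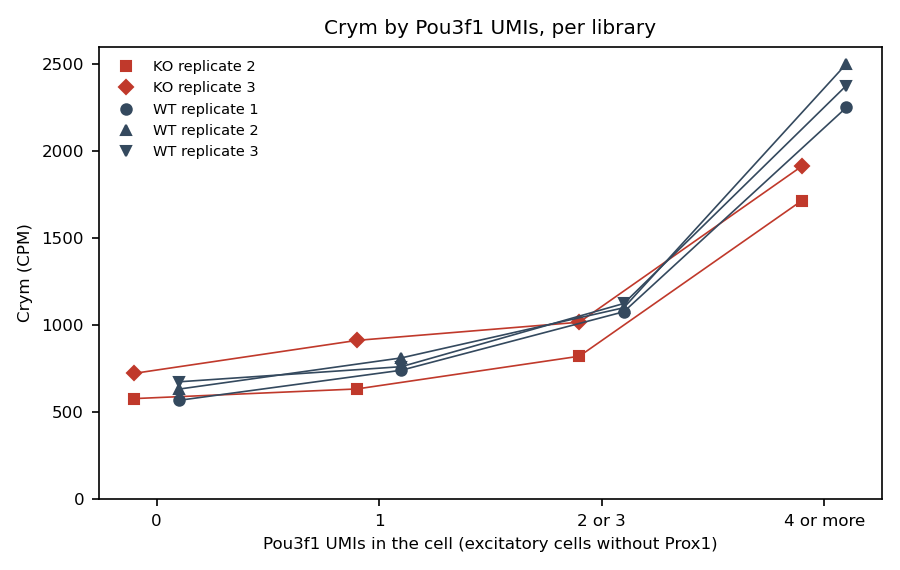
Crym level (CPM) per library in excitatory cells without Prox1, by the number of Pou3f1 UMIs in the cell, with KO points to the left. With 4 or more Pou3f1 UMIs, KO libraries are at 1716 and 1913 CPM and WT libraries at 2251, 2502 and 2377 CPM, whereas both genotypes overlap at 0 and 1. The share of all genes separated in this way was not counted in these classes.

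Cells with no Pou3f1 UMI held 578 and 723 CPM of Crym in KO libraries, against 567, 632 and 674 CPM in WT libraries. Cells with 2 or 3 UMIs held 821 and 1017 CPM in KO libraries, against 1077, 1100 and 1124 CPM in WT libraries. Cells with 4 or more held 1716 and 1913 CPM in KO libraries, against 2251, 2502 and 2377 CPM in WT libraries. The last class had median depths of 17701 and 18058 UMIs per cell in KO libraries, against 18039, 20789 and 16478 UMIs in WT libraries. With 2 or 3 Pou3f1 UMIs the median depths were 8845 and 9859 UMIs in KO libraries, against 8791, 7219 and 9531 UMIs in WT libraries. The classes thus differ in depth as well as in Pou3f1.

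Outside excitatory neurons Crym was low, and in microglia, mural cells and inhibitory neurons its level was close to that of excitatory marker RNA. In microglia it reached 9.22% of its excitatory level, where the 8 excitatory markers summed reached 9.89%, and in mural cells 16.3% against 16.4% (means of 5 libraries). The part of free RNA in these values was not tested. Cajal-Retzius neurons differed from this, with Crym at 3.31% of its excitatory level and the markers at 45.1%, as did intermediate progenitors with 5.02% and 32.8%. Fibroblasts differed the other way, with Crym at 8.86% and the markers at 5.02%, and Crym was the higher in every library. The 8 markers also set the gates, so their level outside excitatory neurons depends in part on the gating. In dividing radial glia Crym stood at 51.9 and 40.0 CPM in KO libraries, against 67.5, 60.3 and 63.7 CPM in WT libraries (log2 fold change -0.47, SE 0.15, edgeR adjusted p = 1.00), with no overlap, as for 8.85% of all genes in this gate. The excitatory markers there were at 11.4% and 10.0% of their excitatory level in KO libraries, against 10.6%, 13.3% and 11.7% in WT libraries. In ependymal cells Crym stood at 63.9 and 19.8 CPM in KO libraries, against 14.0, 21.8 and 21.4 CPM in WT libraries, and the markers were also highest in KO replicate 2, at 11.8%. At 2000 UMIs per cell, 52.0% of CA3-gated cells would carry a Crym UMI, against 7.48% of endothelial cells. Across the 15 gates the patterns most like that of Crym were those of Neurod6 (r = 0.95, itself a gate marker), Rprml (r = 0.95) and Slc17a7 (r = 0.94, also a gate marker).

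No gene of the set passed edgeR's quasi-likelihood test between genotypes in any gate. Leaving Crym in excitatory neurons aside, 79 member-by-gate tests were possible in 16 gates, 1 of which pools all excitatory neurons and so repeats the cells of the field gates, and 0 had an adjusted p under 0.05 with edgeR or DESeq2, while 11 had an unadjusted p under 0.05 with edgeR, 6 of them for Ttr. Of all genes tested, 0.0295% were called in microglia, 0.00932% in Cajal-Retzius neurons and 0% in the other 14. Without the pooled gate, the number of gates with a test was 15 for Thra, 14 for Klf9, 12 for Crym outside excitatory neurons, 10 for Ttr, 7 for Slco1c1, 5 for Thrb, 4 for Dio2 and 2 each for Dio3 and Hr. For Thra the log2 fold change was below 0 in 12 of 15 gates, with a range of -0.18 to 0.32, and for Dio2 it was 0.02 to 0.10 in its 4 gates, none past the test. In the comparison of CA1 and CA3 the other members gave 0 calls of 4 tests, where 0.0326% of all genes were called. Within the 3 added gates they gave 0 calls of 12 tests, where 0% of all genes were called, and 3 had an unadjusted p under 0.05 with edgeR, Ttr in 2 gates and Klf9 in Pou3f1-positive neurons. In the comparison of Pou3f1-positive with Grik4-group neurons they gave 0 calls of 7, where 0% of all genes were called, and 0 had an unadjusted p under 0.05. The edgeR p-values rest on these 2 KO and 3 WT libraries of pooled pups and on dispersions fitted over all genes. They are not a direct measure of the spread between libraries.

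The other 38 genes of the pathway were listed with earlier results known. Between 7 and 34 of them were tested in a gate, 360 tests in all with edgeR, of which 0 passed in either direction and 15 had an unadjusted p under 0.05. DESeq2 tested 535, of which 0 passed and 3 had an unadjusted p under 0.05. Their median log2 fold change lay between -0.08 in endothelial cells and 0.13 in dentate granule neurons, where the medians of all genes were -0.00 and -0.01. Among hormone binders, Pkm, a glycolytic enzyme whose product also binds thyroid hormone, was highest in microglia at 508 ± 166 CPM, and Aldh1a1, an aldehyde dehydrogenase, in fibroblasts at 35.0 ± 11.6 CPM. Among genes for selenoprotein synthesis, which deiodinases need, Secisbp2 reached 39.8 ± 7.03 CPM in ependymal cells and Eefsec 20.6 ± 6.85 CPM in intermediate progenitors.

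Among receptor partners, Rxrb was highest in mural cells at 37.2 ± 27.2 CPM and Rxra in microglia at 19.9 ± 9.89 CPM (SD, n = 5 throughout). The corepressor gene Ncor1 was highest in intermediate progenitors at 353 ± 29.1 CPM and the coactivator gene Ncoa1 in Cajal-Retzius neurons at 185 ± 21.3 CPM. Of the hormone-responsive genes of rodent brain, Nrgn, which encodes the postsynaptic protein neurogranin, was highest in excitatory neurons of no field at 689 ± 187 CPM, and Flywch2 in Cajal-Retzius neurons at 67.3 ± 10.6 CPM.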

How the data were processed

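The deposited tables hold UMI counts per gene and barcode, which the authors made with Cell Ranger 6.1 on mm10, per the submitters' processing notes; filters before deposit and use of strand are not given in the sources used here. Cells with at least 500 genes, 1000 UMIs and at most 15% mitochondrial UMIs were kept. A cell joined the lineage with the most markers detected (3 or more of 8, leading every other lineage by 2), which also dropped cells with markers of 2 lineages; no doublet caller was run. Excitatory cells joined a field with 2 markers and a lead of 2. UMI counts were summed per library and gate and tested with edgeR 4.0.16 in R 4.3.3 (TMM, filterByExpr, quasi-likelihood, genotype only, Benjamini-Hochberg over all genes, gates with at least 20 cells in every library), checked on simulated data. DESeq2 1.42.0 was an alternative. Members and lists were chosen with earlier results of these data known. Pathway genes were named if they passed a test, plus up to 2 per role by mean CPM; similar genes were the top 3 by Pearson correlation of log2(CPM + 1) among genes reaching 20 CPM. Shares at 2000 UMIs are exact expectations for cells with at least that depth. The replicates are pools of 2 pups.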

Additional observations from a re-analysis of the deposited data

How the results depend on the processing

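The count of 0 members passing between genotypes in the 16 gates held with RLE size factors, DESeq2, the looser gate and without the 5% of cells with the most UMIs. It was 5 with no filter on low counts (Ttr in 3 gates, Slco1c1 in ependymal and mural cells), 1 with males as a covariate, 1 with the stricter gate and 1 at a mitochondrial limit of 5%, and 0 to 1 when each library was left out (1 without KO replicate 2 and 1 without WT replicate 3), each time Ttr in radial glia or dividing radial glia. With the replicate number as a block it was 5 (Ttr in 3 gates, Crym in inhibitory neurons, Slco1c1 in mural cells), and 527 genes over all gates were called against 3. KO and WT libraries share only the numbers 2 and 3; their deviations from the group means correlated at 0.69 and 0.54 over 8767 genes, and the number of males follows the same numbers, but no label gives a shared litter, batch or day, so the libraries are taken to share only a number. Among the 38 other pathway genes the count of 0 was 2 with no filter (Nrgn) and 4 with the block (Nrgn and Slc3a2). In the added gates the members' count was 2 with no filter, 3 with the block and 0 to 1 without a library (1 without KO replicate 3). The cause of these changes was not tested. The other members' count in the comparison of CA1 with CA3, and of the added gates, was 0 under each alternative run.

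At a mitochondrial limit of 5% the Crym difference between Pou3f1-positive and Grik4-group neurons was -0.74, that in Grik4-group neurons 0.29 and that in Prox1-positive neurons 0.13; in Pou3f1-positive cells with Nts alone the log2 ratio was -0.23. The stricter gate gave 923 CPM of Crym in excitatory neurons of no field and 2.84 CPM of Hr in oligodendrocyte precursors. Ttr in radial glia was -2.53 with the looser gate and -1.88 without Ttr-rich cells; Ttr in dividing radial glia was -4.33 with the stricter gate, -4.15 without the 5% of cells with the most UMIs and -1.50 without Ttr-rich cells. Differences near 0 changed sign: Slco1c1 in astrocytes with no filter (-8.37e-05), the block (-0.0344), males as a covariate (-0.0539) and the stricter gate (-0.00244), Slco1c1 in endothelial cells with the stricter gate (-0.0860) and the 5% limit (-0.0445), and Klf9 in astrocytes with the 5% limit (0.00858). Leaving out each library gave -0.12 to 0.0848 for Thra in excitatory neurons, -0.52 to 0.0320 for Thrb in inhibitory neurons, -0.0667 to 0.14 for Dio2 in astrocytes, -0.22 to 0.21 for Slco1c1 in astrocytes and -0.0488 to 0.22 for Slco1c1 in endothelial cells. Only 2 KO libraries, low counts of Dio3, Hr and Thrb and 3 CA1-gated cells in WT replicate 2 limit what could be seen.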
